A study of Mus musculus with 8 samples.

Results

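The tricarboxylic acid (TCA) cycle was examined at the transcript level through 9 of its enzymes, namely Cs, Idh2, Idh3a, Idh3b, Ogdh, Suclg1, Sucla2, Fh1 and Mdh2. They were chosen by gene symbol, and all 9 were found among the 18877 genes of the table. The RNA came from activated muscle stem cells (ASCs), the cells that leave quiescence and divide to rebuild injured muscle, with 4 libraries from wild-type and 4 from mfn2-/- mice. All mice were adults that carried a mitochondrial Dendra2 fluorescent protein driven by Pax7-Cre(ERT2), and all received tamoxifen at 75 mg/kg on each of 5 days. In mfn2-/- mice a floxed Mfn2 allele, encoding the outer membrane fusion protein mitofusin 2, was deleted by the same driver, so the deletion was restricted to cells that had expressed Pax7. The labels give no further Mfn2 allele for the wild-type mice. The tibialis anterior was injured with 50 uL of 1.2% BaCl2 at 2 days after the last dose, and at 2 days post injury Dendra2+ CD34- DAPI- cells were sorted.

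The TCA cycle oxidizes the acetyl group of acetyl-CoA to CO2 in the mitochondrial matrix and hands the electrons, as NADH and FADH2, to the respiratory chain. Its intermediates also leave the cycle to make amino acids, lipids and glucose, and are replenished by side reactions. Stem cells of muscle are known to shift their metabolism when they leave quiescence, and loss of mitochondrial fusion can alter respiration, so the comparison asks whether the transcripts of the cycle differ when Mfn2 is deleted.

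Values are normalized reads, that is, the reads of a gene divided by 1 size factor per library. Depth was lowest in wild-type replicate 1 (1880464 reads) and mfn2-/- replicate 4 (2269009) and highest in wild-type replicate 4 (7508215). These 2 libraries stood apart from the rest. Of the 7640 genes with a mean of at least 50, 520 (6.81%) were at 0 reads in mfn2-/- replicate 4 and 135 (1.77%) in wild-type replicate 1, against 3 to 63 in the others, and the small nuclear RNA 7SK took 6.03% of the reads of mfn2-/- replicate 4. Each group also held 2 libraries with and 2 without reads of Y-linked genes, and changes were computed within each kind as well, with no test because only 2 libraries per group remain. Mfn2 itself was read at 243, 245, 202 and 228 in wild-type and at 104, 118, 172 and 110 in mfn2-/- ASCs. The groups did not overlap (log2 change -0.88, 95% interval -1.54 to -0.23; two-sided exact permutation p = 0.0286, the smallest possible with 4 against 4), but the limma adjusted p over all genes was 0.0848, and a gene-level value includes any transcript from which the deleted part is missing.

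Myogenic markers were present in every library, with sums over 8 genes of 7778 to 10330 in wild-type and 14643 to 18921 in mfn2-/- ASCs. By the limma test 3 of the 8 rose and 0 fell, where 3.99% of all genes tested rose and 6.36% fell. The list did not move as 1, with 6 changes above 0 and 2 below. Des had means of 2156 in wild-type and 7969 in mfn2-/- ASCs and so weighed heavily in the sums. Pax7 (662 and 715) and Myf5 (207 and 219) were nearly level, and Itga7 (1249 and 621) was lower but not called. Markers of other cells differed far more. Fibroadipogenic markers (9 of 11 tested fell, 0 rose) summed to 177435 to 245347 in wild-type and 2179 to 4167 in mfn2-/- libraries, and tenocyte markers (8 of 8 fell) to 36938 to 58437 and 306 to 407. The sums of endothelial (832 to 1474), macrophage (29.4 to 98.7) and myofiber markers (982 to 2787) overlapped between the groups, and none of the genes tested in these lists was called. The 2 erythroid genes summed to 34.2 to 66.1 in wild-type and 0 to 28.4 in mfn2-/- libraries, and neither was called. The part of these other cells in the values given here was not tested, and in such bulk samples fewer cells of a type and less RNA per cell cannot be told apart.

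None of the 9 TCA cycle enzymes passed the test. By limma on log2(value + 1), 0 of 9 had an adjusted p under 0.05, against 10.4% of the 11754 genes tested (469 higher and 748 lower; 845 and 632 with upper-quartile scaling). At an unadjusted p under 0.05 there was 1 of 9, Idh3a, against 24.8% of all genes. The edgeR quasi-likelihood test and DESeq2 on the recovered reads also called 0 of 9, against 9.85% and 14.9% of the genes they tested. The values of the groups overlapped for every one of the 9, whereas 19.5% of all genes had no overlap (7.36% higher and 12.2% lower). The median log2 change of the 9 was -0.18, beside -0.16 for all genes tested, with 7 below 0 and 2 above 0, and 44.2% of all genes were above 0. The limma adjusted p ranged from 0.112 to 0.933. These values do not show that the transcripts were equal in the groups, and the intervals below give the changes that remain possible.

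**Figure D1:**
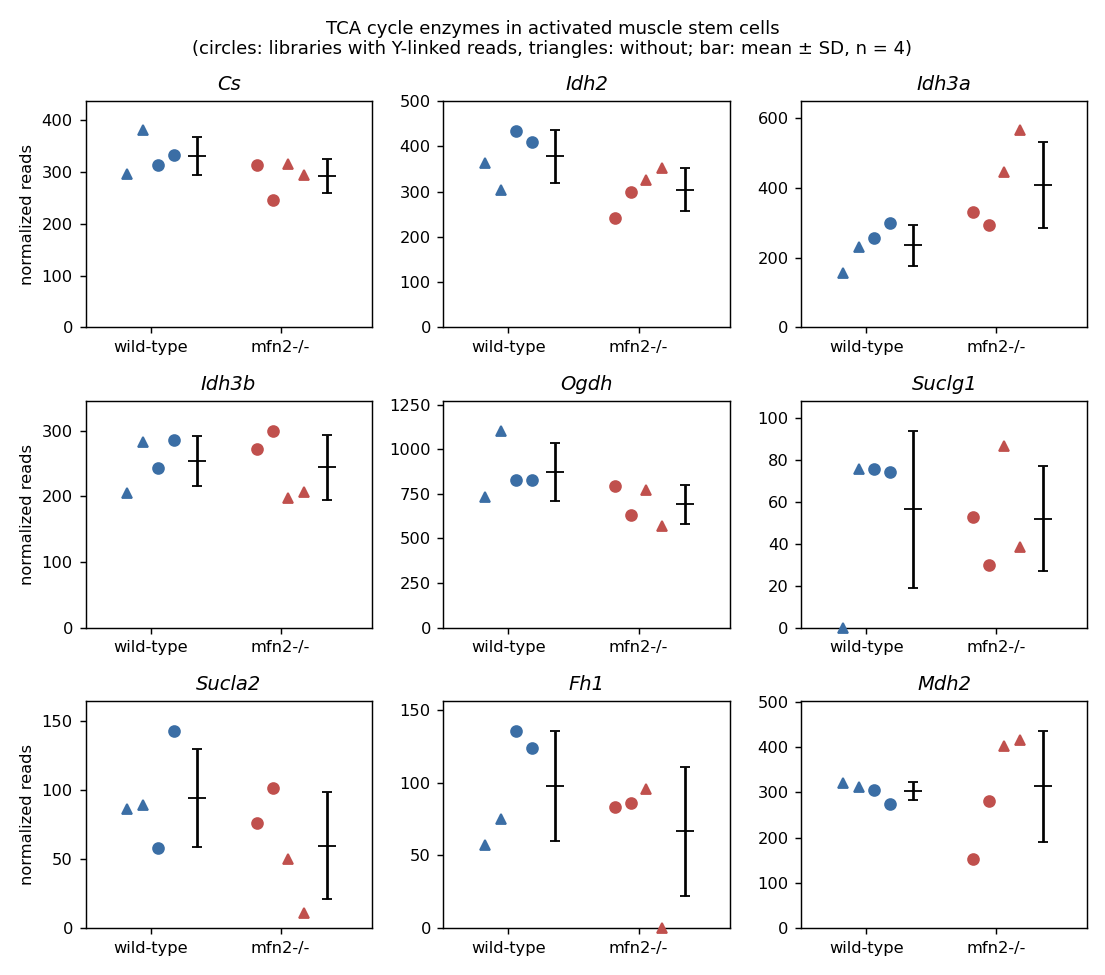
Normalized reads (vertical axis, from 0) of the 9 TCA cycle enzymes in each wild-type (blue) and mfn2-/- (red) library, with the mean ± SD of 4 libraries at the right of each group. Circles are libraries with Y-linked reads and triangles those without; the groups overlap in all 9 panels, most narrowly for Idh3a, where 293 is the lowest mfn2-/- and 298 the highest wild-type value.

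Citrate synthase (Cs) condenses acetyl-CoA with oxaloacetate and is the entry of the cycle. It was read at 296, 381, 313 and 332 normalized reads in wild-type replicates 1 to 4 and at 313, 246, 315 and 295 in mfn2-/- replicates 1 to 4. Most libraries of both groups lay close together, and the highest was a wild-type and the lowest an mfn2-/- library. The means were 330.3 ± 36.7 and 292 ± 32.4 (SD, n = 4), and the log2 change of -0.18 had an interval of -0.67 to 0.31 (limma adjusted p 0.677), and was 0.03 with upper-quartile scaling. The enzyme is widely used as a measure of mitochondrial content, but only its transcript was read here, and mitochondrial content was not measured. For the transcript, a change beyond 0.67 on the log2 scale in either direction lay outside the interval.

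Mitochondria hold separate enzymes for the oxidation of isocitrate. Idh2 uses NADP and makes NADPH in the matrix, whereas the NAD-dependent enzyme of the cycle proper is built from catalytic alpha subunits (Idh3a) with beta (Idh3b) and gamma (Idh3g) subunits. Idh2 was read at 364, 303, 434 and 409 in wild-type and at 241, 299, 326 and 352 in mfn2-/- ASCs. The 3 highest values were wild-type libraries, and wild-type replicate 2 lay among the mfn2-/- libraries. The change was -0.31 (interval -0.82 to 0.20, limma adjusted p 0.450), with 0.03 in the libraries without Y-linked reads and -0.65 in those with them.

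Idh3a had the lowest adjusted p of the 9. It was read at 157, 230, 255 and 298 in wild-type and at 329, 293, 444 and 564 in mfn2-/- ASCs. Only wild-type replicate 4 reached the lowest mfn2-/- value, so that 3 of 4 mfn2-/- libraries exceeded every wild-type library. The means were 235 ± 59.1 and 408 ± 123, a ratio of 1.74. The log2 change was 0.78 (SE 0.29, interval 0.16 to 1.41), with an unadjusted limma p of 0.0183, an adjusted p of 0.112 and a two-sided exact permutation p of 0.0571 (n = 4 per group). As 16.4% of all genes had a smaller p, this is not a call. The change was 1.39 in the libraries without Y-linked reads, where the shallow libraries supplied both the lowest wild-type and the highest mfn2-/- value, and 0.17 in those with them. The difference between the 2 kinds of library was -1.22 (limma adjusted p 0.294). Upper-quartile scaling raised the change to 0.99 with an adjusted p of 0.0382, and library weights lowered it to 0.30.

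Idh3b was read at 205, 283, 243 and 286 in wild-type and at 272, 300.2, 198 and 207 in mfn2-/- ASCs. The mfn2-/- libraries held both the highest and the lowest value, on either side of the wild-type ones. The change was -0.07 (interval -0.64 to 0.50, limma adjusted p 0.902), and 0.14 with upper-quartile scaling. In the GENCODE M21 annotation its exons overlap those of Nop56 on the other strand, and it is not stated whether reads were counted by strand, so reads of the 2 genes may not have been separated.

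The ratio of Idh2 to Idh3a was taken within each library, where scaling enters only through the pseudocount of 1. Its log2 was 1.21, 0.39, 0.77 and 0.45 in wild-type and -0.45, 0.03, -0.45 and -0.68 in mfn2-/- ASCs. All wild-type libraries lay above all mfn2-/- libraries, and the ratio was 1.63 in wild-type and 0.765 in mfn2-/- ASCs (geometric means). The difference of -1.09 gave a two-sided exact permutation p of 0.0286, the smallest possible, and 0.143 after adjustment over the 5 ratios computed. Where only 1 of the 5 ratios separates the groups, 0.143 is the lowest adjusted p it can have. The adjusted test therefore could not pass the threshold here and decides nothing. The share of all gene pairs that separate the groups in this way was not computed. It had the same sign in the libraries without (-1.36) and with Y-linked reads (-0.82), and ran from -1.23 to -0.93 as each library was left out. The Idh3a to Idh3b ratio moved by 0.85 (exact permutation p = 0.0857, adjusted 0.214), with 1.64 in the libraries without Y-linked reads and 0.06 in the others.

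**Figure D2:**
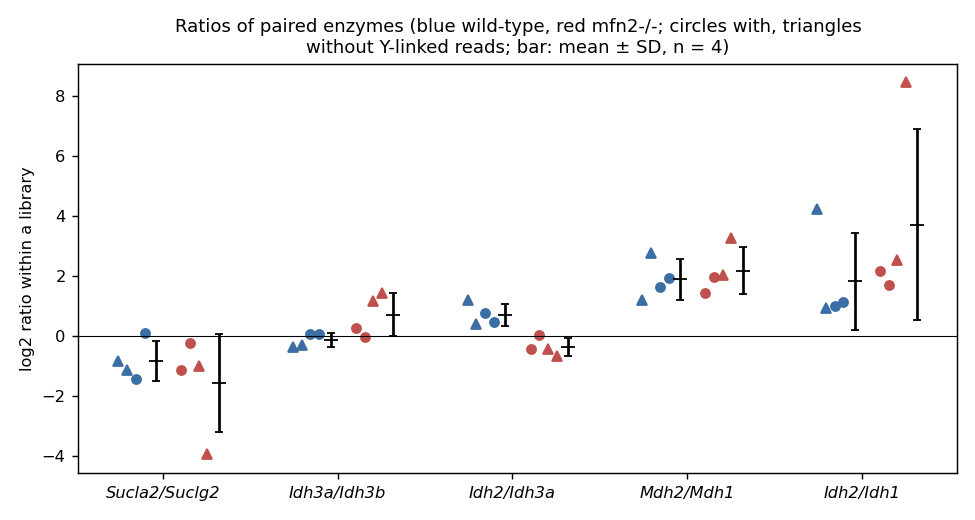
Log2 ratio of normalized reads (vertical axis) for 5 enzyme pairs in each wild-type (blue) and mfn2-/- (red) library, with the mean ± SD of 4 libraries. Only Idh2/Idh3a separates the groups, at 0.39 to 1.21 against -0.68 to 0.03; the 2 high Idh2/Idh1 points, at 4.25 and 8.46, are libraries in which Idh1 had few or 0 reads.

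Ogdh encodes the E1 component of the 2-oxoglutarate dehydrogenase complex, which works with the E2 component Dlst and the E3 component Dld and releases CO2 and NADH. With reads of 730, 1104, 828 and 828 in wild-type and 795, 629.7, 770.1 and 572 in mfn2-/- ASCs, it had the most reads of the 9. The 3 highest values were wild-type, and wild-type replicate 1 lay among the mfn2-/- libraries. The means were 873 ± 161 and 692 ± 108, and the change was -0.33 (interval -0.77 to 0.10, limma adjusted p 0.343). It was below 0 in the libraries without (-0.44) and with Y-linked reads (-0.23) and in all 24 alternative settings, from -0.45 to -0.13. Settings that alter only the filter, the trend, the block or a term for Y-linked reads leave this change as it is.

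Promoter sequence was looked at because Hif1a, the oxygen-regulated subunit of hypoxia-inducible factor, rose in mfn2-/- ASCs (812 ± 195 to 2887 ± 433, limma adjusted p 7.97e-05). ACGTG is a form of the core of the motif that this factor binds, and the form GCGTG was not searched. RefSeq windows (GRCm38.p6, not the mm9 build the reads were mapped to) of 250 bases before the start were found for 8 of 9 enzymes, in 13 windows, and not for Idh3a. Several of the 13 belonged to Ogdh, some overlapping, so Ogdh had more chances of a match than the other enzymes. The letters GCGTG stand in windows of other enzymes as well, such as Fh1 and Idh2. On either strand, ACGTG was found in 16.6% of all 32851 such windows and, among the enzymes, in those of Ogdh alone. The window of its most upstream start (chr11:6291347-6291596, plus strand) is shown with the match, 45 bases before the start and read on the opposite strand, in capitals, beside that of Cs (chr10:128337477-128337726, plus strand), which holds no match.
Ogdh: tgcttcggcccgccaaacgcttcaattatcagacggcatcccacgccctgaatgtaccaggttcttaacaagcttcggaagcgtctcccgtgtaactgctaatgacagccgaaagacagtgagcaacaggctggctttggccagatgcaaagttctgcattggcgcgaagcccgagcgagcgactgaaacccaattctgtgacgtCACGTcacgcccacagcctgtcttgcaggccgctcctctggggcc
Cs: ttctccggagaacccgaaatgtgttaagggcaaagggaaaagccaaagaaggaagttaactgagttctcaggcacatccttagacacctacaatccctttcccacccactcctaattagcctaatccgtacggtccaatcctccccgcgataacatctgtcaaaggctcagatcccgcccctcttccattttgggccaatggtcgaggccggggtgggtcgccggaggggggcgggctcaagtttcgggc
A match is a description of the letters and not a bound site, and Ogdh, with its match, did not pass the test in either direction. The motifs CAGCTG (13.0% of all windows), of the kind bound by myogenic factors, TCAAGGTCA of the estrogen-related receptors (0.387%) and that of nuclear respiratory factor 1 (0.782%) gave no match in the 13 windows. The 13 windows held 9 to 35 CpG (median 17), with both ends of this range in Ogdh windows, beside a median of 6 over all windows.

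Succinate-CoA ligase joins the alpha subunit Suclg1 to either the ADP-forming beta subunit Sucla2 or the GDP-forming Suclg2, and makes the nucleotide triphosphate of the cycle. Suclg1 was read at 0, 75.7, 76.0 and 74.3 in wild-type and at 52.7, 30.02, 87.0 and 38.5 in mfn2-/- ASCs. Of the wild-type libraries 3 were nearly equal, and the shallow replicate 1 had 0 reads where 33.1 would be expected at the mean of the others; 3 reads there would be 6.82 normalized reads. The log2 change of 0.93 (interval -1.83 to 3.68, limma adjusted p 0.703) rested on that library and was -0.64 without it, and -0.13 by DESeq2 on the reads.

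Sucla2 was read at 86.4, 89.2, 58.0 and 143 in wild-type and at 76.0, 102, 50.1 and 11.0 in mfn2-/- ASCs. The lowest value, in mfn2-/- replicate 4, came from 6 reads where 41.5 would be expected at the mean of the other mfn2-/- libraries, and the rest of the groups overlapped. The change was -0.95 (interval -2.45 to 0.56, limma adjusted p 0.437), with -1.84 in the libraries without Y-linked reads and -0.05 in those with them. Without mfn2-/- replicate 4 it was -0.29. The log2 ratio of Sucla2 to Suclg2 differed by -0.75 (exact permutation p = 0.543, adjusted 0.571) and by 0.04 without that library.

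Fh1, fumarase, hydrates fumarate to malate. It was read at 56.9, 74.7, 136 and 123 in wild-type and at 83.3, 86.1, 95.8 and 0 in mfn2-/- ASCs. The other 3 mfn2-/- libraries lay inside the wild-type range, and mfn2-/- replicate 4 had 0 reads where 48.3 would be expected at their mean; 3 reads there would be 5.50 normalized reads. The change of -1.68 (interval -4.36 to 1.01, limma adjusted p 0.439) was -0.06 without that library. Of the 7640 genes with a mean of at least 50, 9.18% were at 0 in at least 1 library. This share pools all levels from 50 upward. It includes genes at 0 for other reasons, such as Y-linked genes, so it is no rate for genes at the level of Fh1.

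Mdh2, mitochondrial malate dehydrogenase, closes the cycle by restoring oxaloacetate. It was read at 321, 312, 306 and 275 in wild-type and at 153, 281, 404 and 416 in mfn2-/- ASCs. The wild-type libraries were close together, whereas the mfn2-/- libraries spread, with the 2 without Y-linked reads above all wild-type libraries, replicate 1 far below them and replicate 2 among them. The means were 303 ± 20.1 and 313 ± 123, and the change was -0.06 (interval -0.73 to 0.62, limma adjusted p 0.933), with 0.37 in the libraries without and -0.48 in those with Y-linked reads. Its sign turned with upper-quartile scaling (0.15), and it was 0.25 without mfn2-/- replicate 1. The log2 ratio of Mdh2 to its cytosolic counterpart Mdh1 differed by 0.28 (exact permutation p = 0.571).

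**Figure D3:**
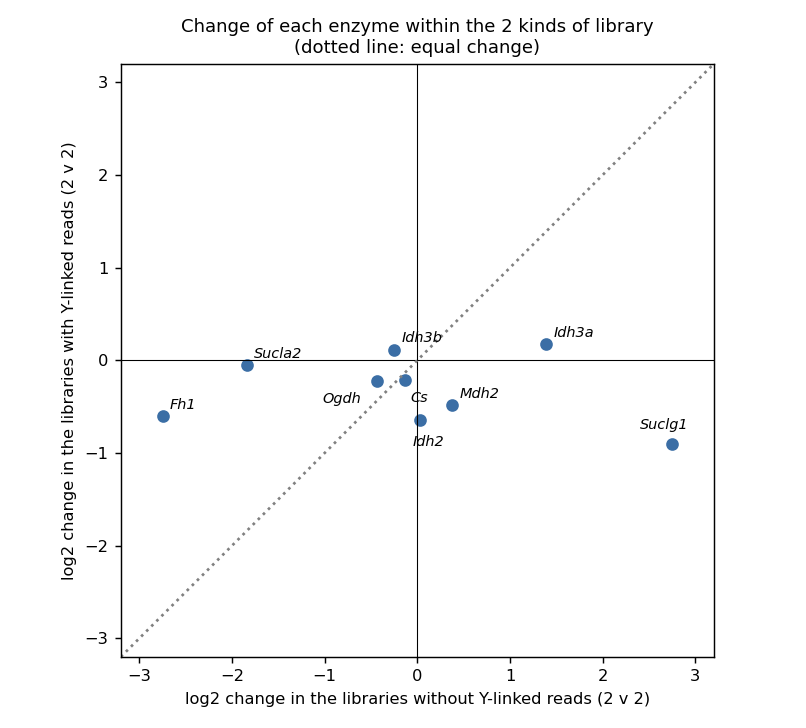
Log2 change (mfn2-/- minus wild-type) of each enzyme in the libraries without (horizontal axis) and with Y-linked reads (vertical axis), 2 against 2 libraries each. Points off the dotted line had unequal estimates, though no difference passed the limma interaction test (lowest adjusted p 0.294). Suclg1 (2.75 and -0.90), Fh1 (-2.75 and -0.60), Sucla2 (-1.84 and -0.05) and Idh3a (1.39 and 0.17) lie far from it, and Cs (-0.14 and -0.22) and Ogdh (-0.44 and -0.23) close to it.

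Within the libraries without Y-linked reads the median change of the 9 enzymes was -0.14 with 4 above 0, and within those with them -0.23 with 2 above 0, beside -0.16 for all genes in each kind. For 4 of 9 (Idh2, Idh3b, Suclg1 and Mdh2) the signs were opposite. No difference between the kinds passed the limma test of the interaction (lowest adjusted p 0.294), which called 1.47% of all genes (12.0% at an unadjusted p under 0.05). The libraries without Y-linked reads include the 2 shallow ones, so this split is in part a split by depth. Wild-type replicate 2 (4080836 reads) and mfn2-/- replicate 3 (5050798), also without them, were deeper. The part of depth in these differences was not tested.

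Levels of different genes were compared per kilobase of transcript, with transcript lengths from GENCODE M21. In wild-type ASCs the highest levels were those of Idh2 (216 ± 33.1 normalized reads per kilobase), Ogdh (211 ± 39.1) and Mdh2 (208 ± 13.8), which did not differ beyond their spread. Idh3b followed at 157 ± 23.7, below every library of Mdh2 but overlapping Idh2 (highest 177 against lowest 174). Cs (113 ± 12.5) overlapped Idh3b (highest 130.1 against lowest 127) and Idh3a (97.8 ± 24.6). Sucla2 (42.3 ± 16.0), Suclg1 (37.2 ± 24.8) and Fh1 (37.0 ± 14.4) formed the lowest group, overlapping each other but not Idh3a. In mfn2-/- ASCs Mdh2 (215 ± 84.6), Idh2 (174 ± 27.3), Idh3a (169.7 ± 51.1), Ogdh (168 ± 26.2) and Idh3b (151 ± 30.7) overlapped. Cs (99.9 ± 11.1) overlapped Mdh2 (highest 107.8 against lowest 104.9) but none of the other enzymes of that group. Suclg1, Sucla2 and Fh1 were again lowest at 34.3 ± 16.5, 26.8 ± 17.4 and 25.2 ± 16.9. Together the 9 took 0.0634% ± 0.0079 of the reads in wild-type and 0.0609% ± 0.0077 in mfn2-/- libraries. The genes whose log2 values over the 8 libraries were most like the mean of the standardized enzymes were Tmem167 (Pearson r 0.955), Hdhd2 (0.92), Dcaf5 (0.914), Clptm1l (0.908) and Tbpl1 (0.895). They are the highest of 5579 genes compared, a description only since libraries of unequal depth enter alike. The enzymes themselves did not share 1 pattern. Their pairwise r over the 8 libraries ran from -0.69 (Idh3a and Sucla2) to 0.89 (Sucla2 and Fh1).

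The other subunits of the cycle gave the same count. Of 9 such genes 8 were tested, Ogdhl being too weak, and 0 passed the limma test in either direction (0 also at an unadjusted p under 0.05 and by edgeR and DESeq2), with a median log2 change of -0.02 and adjusted p of 0.254 to 0.762. Dlst (321 ± 57.5 and 357 ± 55.7, 0.16) and Dld (171 ± 32.8 and 204 ± 37.7, 0.25), the partners of Ogdh, had intervals that spanned 0, as had Idh3g (143 ± 24.8 and 119.8 ± 67.1, -0.47) and Suclg2 (162 ± 26.9 and 144 ± 39.8, -0.20), which has a near-identical copy. Succinate dehydrogenase is both the TCA enzyme that oxidizes succinate and complex II of the respiratory chain. Its catalytic subunits were at 384 ± 95.8 and 314 ± 156 for Sdha (-0.45) and 89.2 ± 16.5 and 121 ± 50.9 for Sdhb (0.33). Of its membrane anchors, Sdhc (43.9 ± 39.7 and 80.4 ± 84.5, 1.57) had 0 reads in wild-type replicate 1 and Sdhd (94.9 ± 57.1 and 38.0 ± 43.5, -2.38, limma adjusted p 0.254) 0 in mfn2-/- replicate 4.

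**Figure D4:**
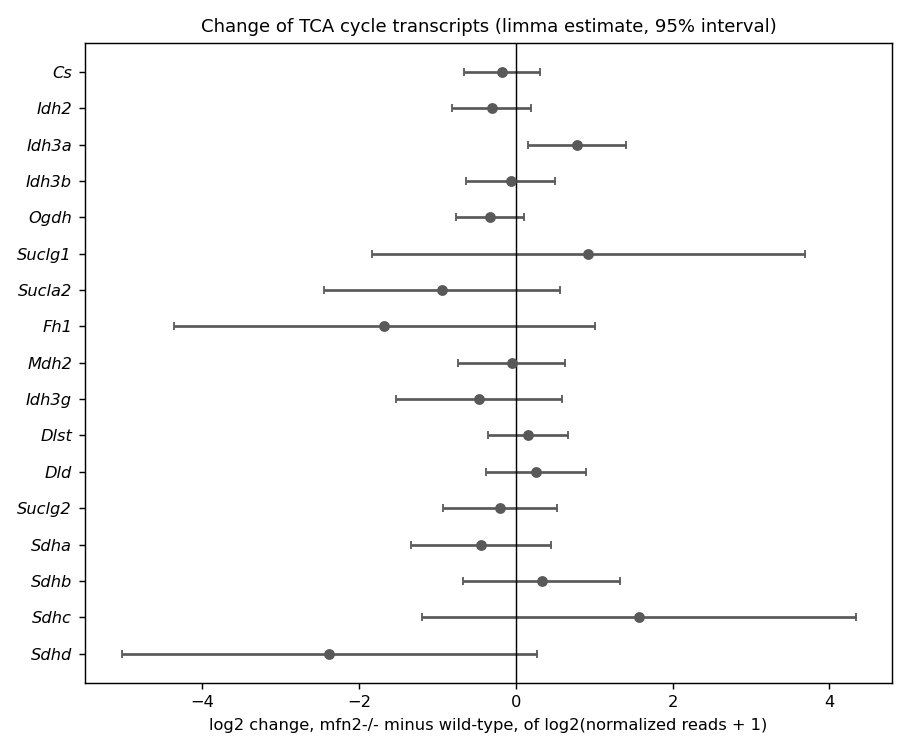
Log2 change (mfn2-/- minus wild-type, horizontal axis) of the 9 enzymes from Cs to Mdh2 and the 8 other tested TCA subunits, as limma estimates with 95% intervals. All but Idh3a span 0; the intervals of Suclg1, Fh1, Sdhc and Sdhd are the widest, each of these genes having 0 reads in 1 library.

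Among the genes that feed or drain the cycle, 2 of 20 partner, 1 of 10 carrier and 1 of 11 pyruvate entry genes passed the test, near the 10.4% of all genes, so these counts are no result about the lists. Of 20 side-branch and cytosolic partner genes tested, 2 fell and 0 rose (6.36% of all genes fell and 3.99% rose), with a median log2 change of -0.46. Gpt2, the mitochondrial alanine transaminase that links alanine and pyruvate to 2-oxoglutarate, was read at 155, 79.9, 234 and 209 in wild-type and at 34.0, 29.2, 32.4 and 47.6 in mfn2-/- ASCs. The groups did not overlap, and the mfn2-/- libraries were close together. The log2 change was -2.13 (interval -3.23 to -1.02, limma adjusted p 0.0190), and the adjusted p was 0.0960 without wild-type replicate 3 and 0.0874 without wild-type replicate 4.

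Oxct1, which transfers CoA from succinyl-CoA of the cycle to acetoacetate in the use of ketone bodies, was read at 541, 425, 412 and 582 in wild-type and at 304, 268, 257 and 161 in mfn2-/- ASCs. Every mfn2-/- library lay below every wild-type library. The change was -1.004 (interval -1.56 to -0.44, limma adjusted p 0.0267), and it lost the call without wild-type replicate 1 or 4 or mfn2-/- replicate 2 or 3 (adjusted p 0.0508 to 0.0912), and also with edgeR TMM (0.0622), upper-quartile scaling (0.0684) and no intensity trend (0.104). The groups also did not overlap for 2 further genes of ketone body use, which were chosen after their values were seen. With them 4 of 20 partner genes had no overlap, near the 19.5% of all genes. Acat1 was at 178 ± 23.7 and 84.6 ± 6.50 (limma adjusted p 0.0679) and Bdh1 at 47.2 ± 43.7 and 1.34 ± 1.60 (adjusted p 0.0534). Glud1, glutamate dehydrogenase, the most abundant of the list, had means of 501 and 484 with a change of -0.04 (adjusted p 0.932).

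Of 10 mitochondrial substrate carriers tested, 1 rose and 0 fell, beside the 3.99% of all genes that rose. Slc25a3, which brings phosphate and copper into the matrix, was read at 769, 444, 547 and 508 in wild-type and at 1099, 979, 866 and 962 in mfn2-/- ASCs. The lowest mfn2-/- value was above the highest wild-type one. The change was 0.81 (interval 0.36 to 1.26, limma adjusted p 0.0260), and leaving out any 1 of wild-type replicates 2, 3 and 4 or mfn2-/- replicates 1 and 2 took the adjusted p to 0.0650 to 0.0759. Of 11 genes of pyruvate entry, 1 rose and 0 fell. Pdk4, a kinase that switches pyruvate dehydrogenase off, was read at 1358, 1303, 799 and 745 in wild-type and at 3192, 3368, 2962 and 2527 in mfn2-/- ASCs. The groups did not overlap, and the change was 1.56 (limma adjusted p 0.000715). The other kinases of the list did not rise with it, and none was called. Pdk2 had means of 119 in wild-type and 40.3 in mfn2-/- ASCs with no overlap (log2 change -1.54, limma adjusted p 0.0660). Pdk1 had means of 52.8 and 18.5 (-2.31, adjusted p 0.236) and Pdk3 of 25.0 and 29.0 (0.36, adjusted p 0.908).

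**Figure D5:**
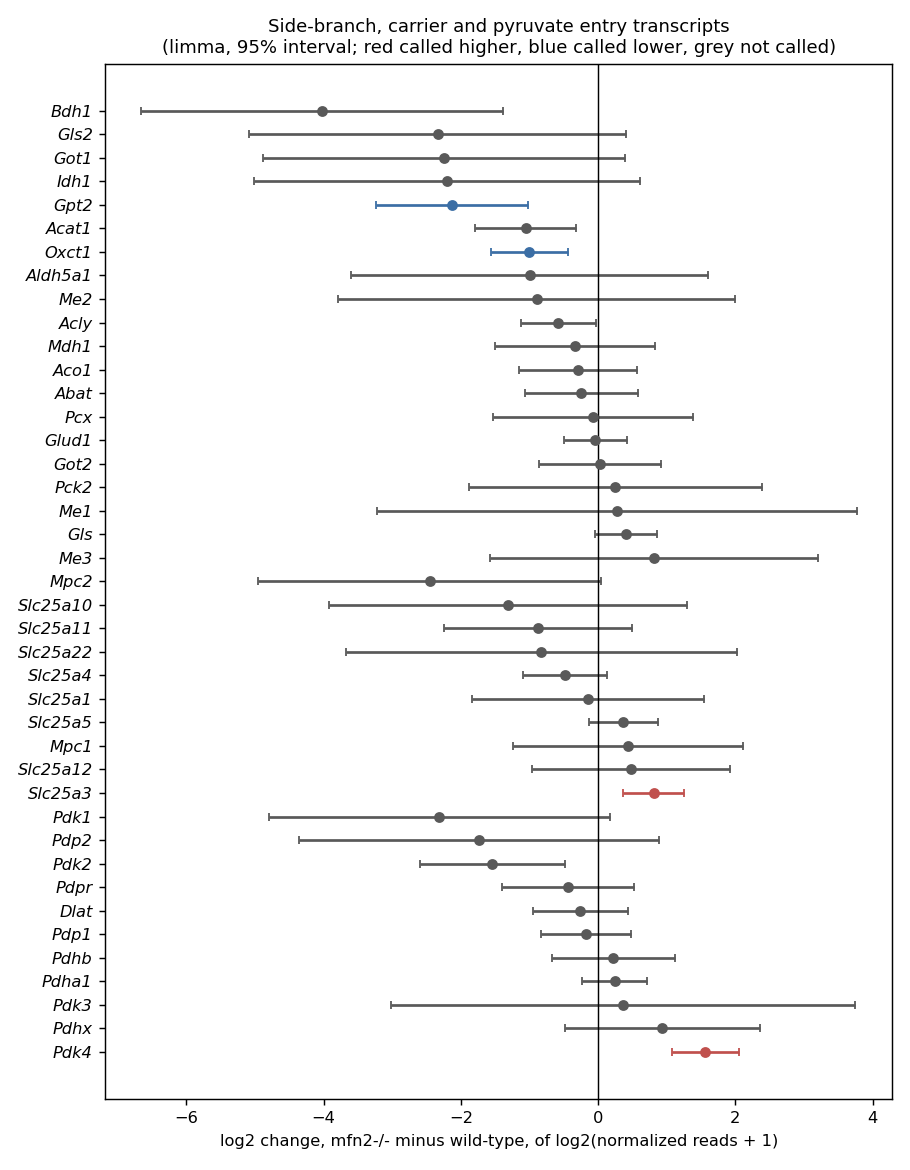
Log2 change (mfn2-/- minus wild-type, horizontal axis) of side-branch and partner genes (Bdh1 to Me3), carriers (Mpc2 to Slc25a3) and pyruvate entry genes (Pdk1 to Pdk4), as limma estimates with 95% intervals. Gpt2 (-2.13) and Oxct1 (-1.004) in blue were called lower and Slc25a3 (0.81) and Pdk4 (1.56) in red higher; genes in grey were not called.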

How the data were processed

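Libraries were prepared with a stranded kit for small amounts of total RNA. Per the submitters' processing notes, the authors used Trim Galore, HISAT2, featureCounts and DESeq2 with the mouse build mm9. Their versions, the annotation and the strand setting are not given in the sources used here. The deposited table gives normalized reads, a signal on a linear scale, with 1 column for each library and 0 columns left unused. In each column 100% of values were whole multiples of 1 step (tolerance 0.01 reads), so reads were recovered by dividing by it. One read was worth 0.534 to 2.27 normalized reads, and 3 reads or fewer were taken as the floor. Such limits cover counting error only.

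Of 18877 genes, the 11754 whose mean in the 8 libraries reached 10 entered a limma fit (version 3.58.1, R 4.3.3) of log2(value + 1). It had an intensity trend, no covariate, all 8 libraries and two-sided Benjamini-Hochberg adjustment at 0.05. The added 1 shrinks the change of weak genes, but 0 reads in 1 library can enlarge or turn it. The change of Fh1 was -1.68 by this fit and -0.55 by DESeq2, and that of Suclg1 0.93 and -0.13. Intervals are at 95%. A fit with genotype, Y-linked reads and their interaction gave the difference between the kinds of library. Ratios were compared by two-sided exact permutation over the 70 arrangements. On the recovered reads, edgeR 4.0.16 (quasi-likelihood, TMM or DESeq2 size factors) and DESeq2 1.42.0 were alternatives, beside other pseudocounts, filters, scalings, weights, blocks and libraries left out. Tables and figures were made in Python 3.11.15, and the tests were checked on simulated data.

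Groups and replicate numbers were taken from the titles. The labels do not say that libraries came from separate animals, and the Y-linked reads show only that those of a group did not all share 1 source, so p-values measure the spread between these samples, which may be partly technical. No pair within a group agreed within sampling noise (chi-square per degree of freedom of 12.0 or more). One gene of the list of other TCA subunits is not reported here. The members and lists were chosen with earlier results of these data known. The text names the 9 enzymes, the other TCA subunits tested, Mfn2 and Hif1a. It also names the called and the most abundant genes of the partner, carrier and pyruvate entry lists. The 5 genes of mean at least 100 with a pattern most like the mean of the enzymes are named as well. Pdk1, Pdk2 and Pdk3 were added beside Pdk4 as the other kinases of their list. Des, Pax7, Myf5 and Itga7 were added to show that the myogenic list was mixed. Wild-type replicate 1 and mfn2-/- replicate 4 were left out together as an alternative chosen after seeing the data.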

Additional observations from a re-analysis of the deposited data

Results flagged for a closer look

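In groups of 4, a library was singled out where its gap to the nearest other, as a share of the group's range, exceeded Dixon's 95% critical value. Of 62 groups tested 7 had such a library, where chance gives about 1 in 20, or 3.1, and 3 of the 7 were mfn2-/- replicate 4 and 2 were wild-type replicate 1, the shallow libraries. Suclg1 was at 0 in wild-type replicate 1 (others 74.3 to 76.0 normalized reads) and Fh1 at 0 in mfn2-/- replicate 4 (others 83.3 to 95.8). In mfn2-/- replicate 4 Sdhc was at 207 (others 36.0 to 41.9), so this library held high as well as low values. Idh3g was at 180.03 in wild-type replicate 4 (others 126 to 134), and Sdha at 242 in wild-type replicate 2 (others 415 to 448).

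The log2 ratio of Idh2 to the cytosolic Idh1 was 4.25 in wild-type replicate 1 (others 0.94 to 1.12) and 8.46 in mfn2-/- replicate 4 (others 1.71 to 2.54). Idh1 was at 18.2 and 0 normalized reads in these libraries, so the second value depends on the pseudocount and is no bound. The group difference of 1.89 gave a two-sided exact permutation p of 0.371 (adjusted 0.571 over the 5 ratios).

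Pdk4 was the 1 gene of the lists on metabolism whose change differed between the kinds of library by the limma interaction test, with 1.04 in the libraries without and 2.09 in those with Y-linked reads, a difference of 1.05 (adjusted p 0.0410). That test called 1.47% of all genes, so 1 call is no result about the lists. Pdk4 was higher in every mfn2-/- library of both kinds.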

How the results depend on the processing

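Over 24 alternatives for each of the 9 enzymes (216 values), 198 kept their direction and side of the threshold, 17 turned direction and 1 passed the threshold, Idh3a with upper-quartile scaling (1 enzyme called). The other 23 alternatives called 0 of 9, including all that left out 1 library, and Idh3a stayed above 0 in every setting, from 0.30 to 0.99. The filters, the fit without the trend, the replicate block and the term for Y-linked reads leave the log2 change of a gene as it is. In these settings no direction could turn, and only the p-value could move. The median log2 change over all genes was -0.16, and 0.04 with upper-quartile scaling, 0.13 with quantile normalization, -0.27 with totals without matrix markers and ribosomal RNAs and -0.05 with edgeR TMM, so a change within about that shift has no fixed sign. Precision was lowest for Suclg1, Sucla2, Fh1, Sdhc and Sdhd, which had 0 or 6 reads in a shallow library where 25.8 to 48.3 were expected from the other libraries of the group, and the cause was not tested. The cause of the differences between settings below was not tested.

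Upper-quartile scaling gave Cs 0.029, Idh3b 0.14, Mdh2 0.15, Suclg2 0.0057 and Glud1 0.17 on the log2 scale. Library weights gave Idh3b 0.052, Suclg1 -0.50, Idh3g 0.079, Sdhb -0.049, Sdhc -0.036 and Glud1 0.24, and 1 other TCA subunit, Sdhd, was called. The count-based tests gave Idh3b 0.018, Suclg1 -0.065, Mdh2 0.098 and Glud1 0.039 by edgeR with TMM, Suclg1 -0.13 and Mdh2 0.045 by edgeR with DESeq2 size factors, and Suclg1 -0.13 and Mdh2 0.044 by DESeq2. Equal totals gave Glud1 0.0082. Without the 2 shallowest libraries Suclg1 was -0.53, Sdha 0.11, Sdhc -0.47 and Glud1 0.16. With 1 library left out at a time, Idh3b ran from -0.17 to 0.027, Suclg1 from -0.64 to 1.45, Mdh2 from -0.23 to 0.25, Idh3g from -0.79 to 0.013, Sdha from -0.70 to 0.019 and Glud1 from -0.12 to 0.089. The log2 ratio difference ran from -1.20 to 0.044 for Sucla2/Suclg2 and from -0.085 to 0.58 for Mdh2/Mdh1, in each case turning without mfn2-/- replicate 4. The 9 enzymes took 0.0762% (wild-type) and 0.0665% (mfn2-/-) of the reads (ratio 0.872, against 0.96 of the whole total) with the matrix markers, collagens, ribosomal RNAs and 7SK left out of the total.

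Mfn2 passed with library weights (-0.87, limma adjusted p 0.0099). Partner genes called numbered 1 with upper-quartile scaling or edgeR TMM, 4 with library weights, totals without matrix markers and ribosomal RNAs, DESeq2 or without the 2 shallowest libraries, and 0 to 3 with 1 library left out. Carriers called were 0 without the trend and 0 to 1 with 1 library left out, and pyruvate entry genes 2 with a mean of at least 50, without the trend, with library weights, by DESeq2 or without the 2 shallowest libraries, and 1 to 2 with 1 library left out. Genes called in all (1217, 38.5% higher) were 633 without the trend (113 higher, 17.9%) and 3037 with library weights (1398 higher, 1639 lower); 845 were higher with upper-quartile scaling (57.2%), and 28.8% with totals without matrix markers and ribosomal RNAs. Leaving out 1 library gave 670 to 1307 in all, 235 to 470 higher and 435 to 837 lower, lowest without wild-type replicate 3.

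The replicate numbers did not pair the libraries, since the deviations of same-numbered libraries correlated at -0.11 to 0.04. With the replicate number as a block, 1043 genes were called (434 higher, 609 lower), 0 of the 9 enzymes and 1 partner gene (Oxct1 at an adjusted p of 0.0506).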
